A study of Mus musculus with 12 samples.

Results

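Loss of Dux as a change in the response to doxorubicin was measured in E14 cells, a line of mouse embryonic stem cells. The quantity was an interaction, the drug response of Dux knockout (Dux KO) cells minus the drug response of wild-type (WT) cells, computed for each gene. It used 8 of the 12 libraries of the series, chosen by their labels alone. These were 2 libraries each of Dux KO cells with doxorubicin, Dux KO cells with vehicle, WT cells with doxorubicin and WT cells with vehicle. Treated cells received 1 uM doxorubicin for 6 h and were then moved to medium without drug, and controls received DMSO for 6 h. How long after the change of medium the RNA was taken is not given in the sources used here. All 4 groups grew on gelatin in medium with 2i inhibitors and LIF, and RNA was selected for poly(A) tails. The Dux KO libraries came from 2 knockout lines, each with and without drug, and the kind of edit is not stated in the labels. The WT libraries all carry 1 line's name. The labels call the libraries of a group biological duplicates, and the p-values measure the spread between these duplicates.

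Doxorubicin traps type II topoisomerases on DNA and causes double-strand breaks. The breaks stabilise p53, a transcription factor that raises genes of cell-cycle arrest, death and repair, among them Mdm2, which targets p53 for degradation. Dux, named Duxf3 in the annotation, encodes a double-homeobox transcription factor present briefly in the 2-cell mouse embryo. In mouse embryonic stem cells it switches on genes of that stage, such as the Zscan4 cluster, Zfp352 and the Tcstv and Usp17-like families, and it has been placed downstream of p53. The interaction addresses which parts of the damage response differ in cells that lack Dux.

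The results turn on the Zscan4 genes and Zfp352 on the lower side and on the Mir210 locus on the higher side, and their sequences are shown for that reason, from RefSeq on GRCm38.p6. Each promoter covers 250 bases before and 50 after a gene's start. The Zscan4b promoter is chr7:10905001-10905300 on the minus strand, the Zscan4f promoter is chr7:11397665-11397964 on the plus strand, and the Zfp352 promoter is chr4:90218570-90218869 on the plus strand. Capitals in the Zscan4 pair mark the 13 of 300 positions at which both differ, with 287 identical.
Zscan4b promoter: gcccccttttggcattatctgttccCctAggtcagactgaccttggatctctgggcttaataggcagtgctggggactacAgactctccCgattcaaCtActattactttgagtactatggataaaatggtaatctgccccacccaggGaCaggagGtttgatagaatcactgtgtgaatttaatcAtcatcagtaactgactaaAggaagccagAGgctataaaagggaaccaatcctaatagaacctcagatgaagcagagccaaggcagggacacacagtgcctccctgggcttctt
Zscan4f promoter: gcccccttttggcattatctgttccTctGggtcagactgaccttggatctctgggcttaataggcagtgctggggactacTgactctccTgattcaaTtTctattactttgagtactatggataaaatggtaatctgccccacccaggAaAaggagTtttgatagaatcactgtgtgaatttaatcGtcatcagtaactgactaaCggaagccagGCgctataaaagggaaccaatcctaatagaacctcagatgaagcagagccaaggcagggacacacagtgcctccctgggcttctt
Zfp352 promoter: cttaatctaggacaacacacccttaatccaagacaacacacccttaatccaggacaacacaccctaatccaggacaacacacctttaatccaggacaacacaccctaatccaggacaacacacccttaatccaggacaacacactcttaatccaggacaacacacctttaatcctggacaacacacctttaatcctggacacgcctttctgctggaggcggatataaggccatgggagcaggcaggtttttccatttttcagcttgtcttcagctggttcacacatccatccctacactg
The mature mmu-miR-210-3p is at chr7:141221407-141221428 on the minus strand, and capitals mark its seed, bases 2 to 8.
mmu-miR-210-3p: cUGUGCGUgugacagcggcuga
The core of the published Dux motif, TGATT, any base and AATCA on either strand, was in 0 of 702 promoters of genes with a lower interaction and in 0 of 1248 with a higher one. It was in 1 of 12388 promoters of all genes tested (0.00807%) and in 11 of 32851 in the whole promoter table (0.0335%). An exact match is too rare in these windows for the counts to tell the groups apart. Whether these genes have Dux sites was not tested.

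The libraries held 50796507 to 56795858 counted reads in Dux KO cells and 27059180 to 30493264 in WT cells, so the Dux KO values are the more finely resolved. In the deposited counts the column of Dux KO control 2 equals that of Dux KO doxorubicin 1 at 54532 of 54532 genes, and the FPKM table, where these libraries differ, was used in its place. FPKM, which scales fragments by gene length and library size, was computed over the whole gene span, introns included. The summed FPKM of 7 embryonic stem cell markers was 643.5 to 753.3 in drug-treated Dux KO libraries and 1210.4 to 1814.9 in their controls, against 291.7 to 357.4 in drug-treated WT libraries and 1441.6 to 1487.7 in their controls. Each of the 7 reached 1 FPKM. Of 7 fibroblast markers, Acta2, Col1a2, Col3a1 and Postn stayed under 0.1 FPKM everywhere and 2 reached 1 FPKM, with a sum of 1.21 to 1.63 and 0.424 to 0.439 in Dux KO cells with and without drug, against 2.85 to 2.96 and 0.901 to 0.953 in WT cells. None of 6 primitive endoderm markers reached 1 FPKM. The part of these cell types in the results was not tested.

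Most genes that drug changed in Dux KO cells changed in the same direction in WT cells. Of 25373 genes tested, drug raised 5917 (23.3%) and lowered 2590 (10.2%) in Dux KO cells, against 6826 raised (26.9%) and 6330 lowered (24.9%) in WT cells. The number lowered in Dux KO cells was larger in other fits, at 4502 with quantile normalization, 5697 in edgeR with recovered reads and 5374 in DESeq2, against 8436, 7098 and 6471 lowered in WT cells. The shares that follow rest on the limma calls. The genotypes share no library, and 4162 genes rose in both, which is 70.3% of the Dux KO rises and 61.0% of the WT rises. The 2174 genes that fell in both made up 83.9% of the Dux KO falls and 34.3% of the WT falls. The genes passing in opposite directions numbered 189. Across the 25373 genes the responses had a Pearson r of 0.55, a description over genes that share the same 8 libraries.

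A positive interaction means that the drug response was more positive in Dux KO cells, and a negative one that it was more negative there. It was higher for 1985 genes (7.82%) and lower for 1797 (7.08%) at a limma adjusted p under 0.05 on log2(FPKM + 0.1). All interactions below are on that log2 scale, and the median over all genes tested was 0.24. Rescaling the FPKM columns by a TMM-type factor moved that median to 0.04 and gave 1133 higher and 2045 lower genes, a share of higher calls of 35.7% against 52.5%. The number of calls also rests on single libraries. Without WT doxorubicin b, 129 genes were higher and 237 lower, and without WT doxorubicin a, 580 and 357. Leaving out WT control a or b, or Dux KO doxorubicin 1 or 2, gave 449 to 533 higher and 1202 to 1428 lower genes. Leaving out Dux KO control 1 or 2 gave 2977 and 3002 higher genes.

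The genes on the lower side were of a different make-up from those on the higher side. Of the 1797 lower genes, 428 (23.8%) were listed at 0 in all 4 Dux KO libraries, 22% were pseudogenes and 49.0% coded for proteins. Of the 1985 higher genes, 12 (0.6%) were listed at 0 in all Dux KO libraries, 7.6% were pseudogenes and 73.6% coded for proteins. Over all genes tested these shares were 2.2%, 18.0% and 56.9%. A gene at 0 in all Dux KO libraries passed the filter only through WT libraries, and its interaction is the WT response with the sign turned. The share listed at 0 therefore reflects the filter and the WT response, and is no separate result about these genes.

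**Figure D1:**
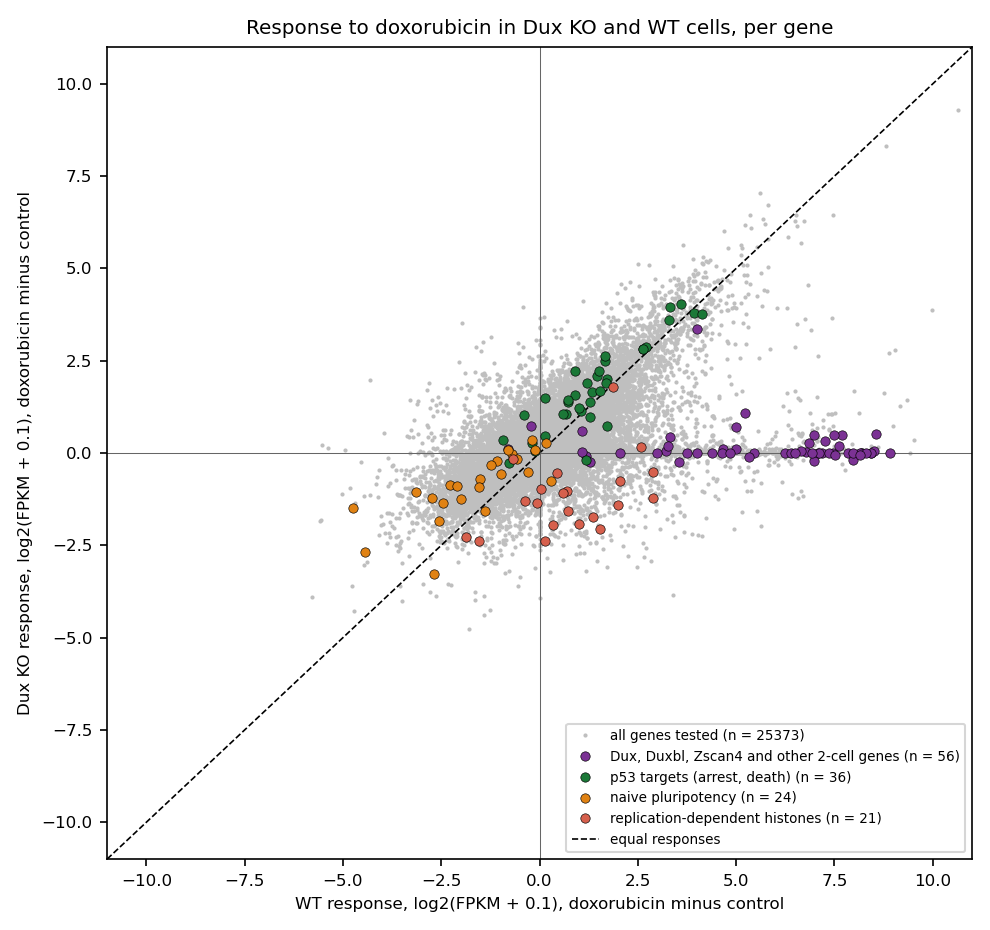
Drug response of each of 25373 genes in Dux KO cells (vertical axis) and in WT cells (horizontal axis), both as log2 difference of FPKM + 0.1, doxorubicin minus control, with dashed equality. The Dux, Zscan4 and 2-cell genes (purple) lie far to the right near a Dux KO response of 0, p53 targets (green) near equality, naive pluripotency genes (orange) mostly above it and histone genes (red) mostly below it.

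Duxf3 itself gave no read in any Dux KO library and rose with drug in WT cells. Duxf3 (chr10:58229979-58232675) had 0 reads in all 4 Dux KO libraries, against 670 and 685 in the drug-treated WT libraries and 2 and 0 in their controls. Its level was 0 FPKM in all 4 Dux KO libraries, against 8.64 and 8.53 FPKM in the drug-treated WT libraries and 0.03 and 0 FPKM in their controls. The drug-treated WT pair stood apart from the other 6 libraries, and the knocked-out gene gave no sign against the labels of the 4 Dux KO libraries. Its interaction was -6.25 (SE 0.22, limma adjusted p = 5.2e-05). On counts with recovered reads Duxf3 missed the threshold in edgeR (adjusted p = 0.9999) and passed it in DESeq2 (adjusted p = 0.00101). Genes with no reads in all Dux KO libraries take their fitted size from the pseudocount, so it is no bound. Such genes passed the filter only through WT libraries. Their 4 Dux KO values are equal and add no spread to the fit. Their SE and limma adjusted p are therefore no measure of spread between Dux KO libraries. In bulk RNA, a change in the share of cells in a 2-cell-like state and a change in RNA per cell cannot be told apart.

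The 3 Duxbl genes, relatives of Dux on chromosome 14, also differed. With Duxf3 they make 4 genes tested, and 4 of 4 had a lower interaction (background 7.08%), with a median of -3.11, against 0.24 over all genes. Duxbl1 (chr14:25978577-25990088) had 0.092 and 0.058 FPKM in the drug-treated Dux KO libraries and 0.075 and 0.058 FPKM in their controls, against 1.22 and 1.26 FPKM in the drug-treated WT libraries and 0.042 and 0.046 FPKM in their controls. Its interaction was -3.15 (SE 0.21, limma adjusted p = 0.00043). Drug-treated WT libraries were above 1 FPKM and the other 6 were below 0.1 FPKM. Duxbl3 had an interaction of -3.07 (adjusted p = 0.00035) and Duxbl2 of -2.89 (adjusted p = 0.0044). The Duxbl copies are near-identical, and 93.5% of the 50-base words of Duxbl1 transcripts occur in other genes, so their separate values are uncertain. Duxbl2 missed the threshold without WT doxorubicin b (adjusted p = 0.0591). Duxf3, Duxbl1 and Duxbl3 then fell below the filter of 0.1 FPKM in 2 libraries and could not be fitted, which left 0 calls in this list. With each library set to at least 3 reads, the list's median interaction was -4.39.

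Zscan4 genes encode SCAN-domain zinc finger proteins of the 2-cell embryo that also act on telomeres in mouse embryonic stem cells. All 9 tested were lower in the interaction (background 7.08%), with a median of -8.22. Zscan4c (chr7:11005745-11010547) had 0 FPKM in all 4 Dux KO libraries, against 101 and 114 FPKM in the drug-treated WT libraries and 0.249 and 0.314 FPKM in their controls. It had 0 reads in all 4 Dux KO libraries, against 13954 and 16336 in the drug-treated WT libraries and 30 and 40 in their controls. The Dux KO libraries held no reads with or without drug, and among WT libraries reads were many with drug and few without it. Its interaction was -8.14 (SE 0.19, limma adjusted p = 2.5e-05). Zscan4f had 0 FPKM in both libraries with drug and 0.009 and 0 FPKM without it in Dux KO cells, against 107 and 126 FPKM with drug and 0.353 and 0.265 FPKM without it in WT cells, an interaction of -8.22 (adjusted p = 2.8e-05). Zscan4d had 0 FPKM in all 4 Dux KO libraries, against 81.2 and 90.2 FPKM with drug and 0.208 and 0.276 FPKM without it in WT cells, an interaction of -7.98 (adjusted p = 2.6e-05). Both followed Zscan4c, with the drug-treated WT pair far above the rest.

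The remaining Zscan4 copies spanned a narrow range. Their interactions were -8.46 for Zscan4-ps3, -8.43 for Zscan4-ps2, -8.42 for Zscan4a, -8.31 for Zscan4e, -8.19 for Zscan4b and -8.16 for Zscan4-ps1. The copies lie together on chromosome 7, and 85.5% of the 50-base words of Zscan4c transcripts and 86.8% of those of Zscan4f occur in other genes. The promoters printed above differ at 13 positions. Reads of one copy may therefore be counted at another, and only the family as a whole is certain. Of the 9, 6 had no reads in any Dux KO library and passed the filter only through WT libraries. As for Duxf3, their SE and limma adjusted p hold no spread from Dux KO libraries. With each library set to at least 3 reads, the list's median interaction was -9.01. A count model (edgeR) called 2 of 9 and another (DESeq2) 9 of 9. For the 6 without Dux KO reads edgeR gave interactions of -9.85 to -8.43, each at adjusted p = 0.9999. Zscan4-ps3, with 2 reads in Dux KO doxorubicin 1, was at -6.44 (edgeR adjusted p = 0.9999). Without WT doxorubicin b, 7 of 9 were called, with no value for Zscan4a and Zscan4-ps1.

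**Figure D2:**
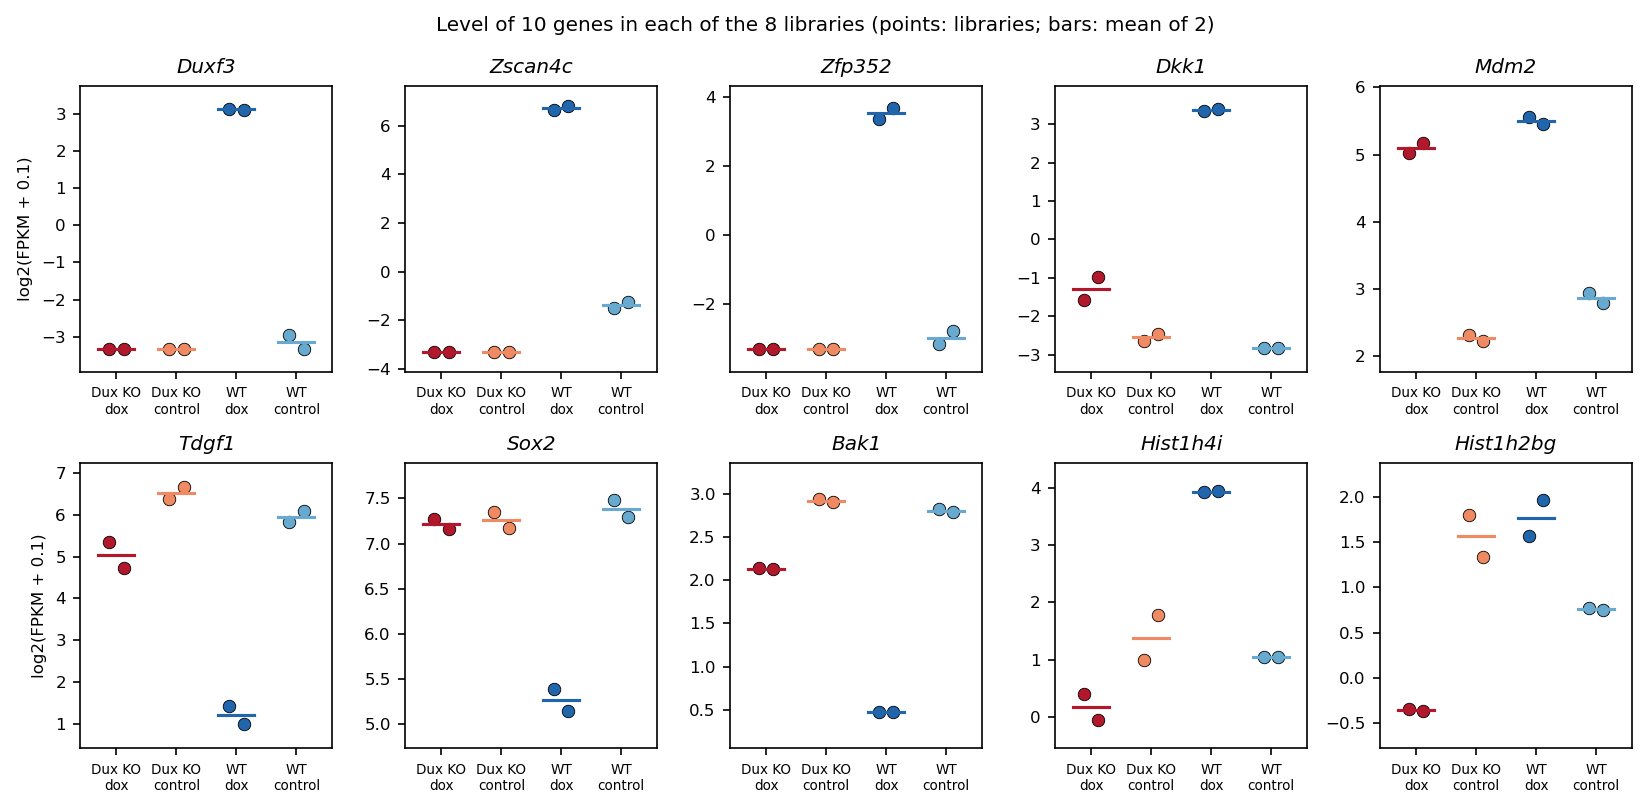
Level of 10 genes in each of the 8 libraries as log2(FPKM + 0.1), with points for libraries and bars for the mean of 2. Duxf3, Zscan4c, Zfp352 and Dkk1 are high in drug-treated WT libraries alone, Mdm2 is high with drug in both genotypes, and Tdgf1, Sox2 and Bak1 are lowest in drug-treated WT libraries.

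Other gene families of the 2-cell embryo moved with Zscan4. Of 28 genes of multicopy families, 25 were lower and Pramef12 was the 1 higher (background 7.08% and 7.82%), with a median of -6.68. Of the 28, 11 had no reads in any Dux KO library and passed the filter only through WT libraries. Tcstv3, of the Tcstv family on chromosome 13, had 0 FPKM in both libraries with drug and 0.029 and 0 FPKM without it in Dux KO cells, against 27.4 and 22.7 FPKM with drug and 0 FPKM in both libraries without it in WT cells, an interaction of -8.15 (adjusted p = 3.1e-05). Usp17le, of the Usp17-like deubiquitinases, had 0.004 and 0.027 FPKM with drug and 0 FPKM in both libraries without it in Dux KO cells, against 27.7 and 31.9 FPKM with drug and 0.085 and 0.024 FPKM without it in WT cells, an interaction of -7.42 (adjusted p = 9.2e-05). Each was below 0.1 FPKM in the Dux KO libraries. Gm4340 had 0 FPKM in all 4 Dux KO libraries, against 123 and 135 FPKM with drug and 0.595 and 0.669 FPKM without it in WT cells, an interaction of -7.46 (adjusted p = 2.3e-05). AF067061 (-7.84) and Gm20767 (-6.77) followed. In Gm4340, 98.9% of the 50-base words occur in other genes. The pair Gm8701 (-7.54) and Gm8723 (-7.59), unprocessed pseudogenes on chromosome 10, belonged to no list and were named for their small adjusted p of 2.3e-05. At the floor of 3 reads the multicopy list's median was -7.35. Without WT doxorubicin b fewer of its genes were called. Tcstv3, Usp17le and Gm20767 then fell below the filter of 0.1 FPKM in 2 libraries and could not be fitted. On counts, edgeR called 6 of the 28 lower and DESeq2 19. Usp17le, Gm4340 and AF067061 missed the threshold in edgeR, and Usp17le also in DESeq2 (adjusted p = 0.226).

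Genes of the 2-cell embryo outside these families differed as well, with 3 raised in Dux KO cells and 14 in WT cells (background 23.3% and 26.9%). Of 15 tested, 12 were lower and 0 higher (background 7.08% and 7.82%), with a median of -4.28. Of the 15, 4 had no reads in any Dux KO library and passed the filter only through WT libraries. Zfp352 (chr4:90218820-90225702), a zinc finger gene used as a 2-cell marker, had 0 FPKM in all 4 Dux KO libraries, against 10.3 and 12.6 FPKM in the drug-treated WT libraries and 0.012 and 0.044 FPKM in their controls. The drug-treated WT libraries stood alone here too, and the interaction was -6.50 (SE 0.25, limma adjusted p = 6.7e-05). Only 7.1% of its 50-base words occur in other genes. Tmem92, a transmembrane protein gene, had 0.042 and 0.038 FPKM with drug and 0 FPKM in both libraries without it in Dux KO cells, against 27.4 and 26.6 FPKM with drug and 0.044 and 0.055 FPKM without it in WT cells, an interaction of -7.02 (adjusted p = 2.3e-05). Ubtfl1, a gene of the early mouse embryo, had an interaction of -5.45 (adjusted p = 6.3e-05), and Rfpl4b of -4.63 (adjusted p = 6.8e-05). Of the 50-base words of Rfpl4b transcripts, 0.0% occur in transcripts of other genes, though inexact matches and sequence outside annotated transcripts were not searched. Kdm4dl, annotated as an unprocessed pseudogene, had 0 and 0.106 FPKM with drug and 0 FPKM in both libraries without it in Dux KO cells, against 47.4 and 50.8 FPKM with drug and 0.067 and 0 FPKM without it in WT cells, an interaction of -8.05 (adjusted p = 0.0005). AU015228, a noncoding transcript on chromosome 2, had 0.353 and 1.11 FPKM with drug and 0.172 and 0.18 FPKM without it in Dux KO cells, against 98 and 109 FPKM with drug and 0.06 and 0.057 FPKM without it in WT cells, an interaction of -7.93 (adjusted p = 0.00082), and kept its call in edgeR and DESeq2. Obox1, an oocyte-specific homeobox gene, had 0.004 and 0.007 FPKM with drug and 0.002 and 0.001 FPKM without it in Dux KO cells, against 1.1 and 1.2 FPKM with drug and 0.004 and 0.004 FPKM without it in WT cells, an interaction of -3.53 (adjusted p = 0.00013). It overlaps 9 other annotated genes, whose reads cannot be told apart from its own. On counts, edgeR called 5 of the 15 lower and DESeq2 9. Zfp352, Tmem92, Rfpl4b and Kdm4dl missed the threshold in edgeR, and in DESeq2 Tmem92 (adjusted p = 0.138), Rfpl4b (0.48) and Kdm4dl (0.336) did. Without WT doxorubicin b fewer of the 15 were called. Zfp352, Tmem92, Ubtfl1 and Rfpl4b then fell below the filter of 0.1 FPKM in 2 libraries and could not be fitted. The floor of 3 reads gave a median of -4.75.

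Genes known to act on Dux showed few differences. Of 20 tested, 2 were higher and 1 was lower (background 7.82% and 7.08%), with a median of 0.23. Dppa2, which with Dppa4 activates Dux in mouse embryonic stem cells, had 1.13 and 1.14 FPKM in the drug-treated Dux KO libraries and 1.44 and 1.15 FPKM in their controls, against 4.22 and 4.27 FPKM in the drug-treated WT libraries and 1.51 and 1.43 FPKM in their controls. Only the drug-treated WT pair was above 2 FPKM. The interaction was -1.64 (SE 0.18, limma adjusted p = 0.0036). Ehmt2, the histone H3 lysine 9 methyltransferase G9a, had 6.28 and 7.33 FPKM in the drug-treated Dux KO libraries and 8.54 and 7.79 FPKM in their controls, against 2.9 and 2.38 FPKM in the drug-treated WT libraries and 9.09 and 8.54 FPKM in their controls. The drug-treated WT pair was the lowest, and the interaction was 1.45 (SE 0.20, limma adjusted p = 0.0081). Kdm1a, a histone demethylase, also passed, though not with the knockout line as a block (adjusted p = 0.053) or without any 1 of the 4 WT or 2 drug-treated Dux KO libraries (0.0955 to 0.167). Without WT doxorubicin b, Dppa2 and Ehmt2 missed the threshold (adjusted p = 0.0534 and 0.0637).

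The classic p53 response was present in both genotypes. Of 21 targets of feedback and arrest, drug raised 17 in Dux KO cells and 16 in WT cells (background 23.3% and 26.9%). Of 15 death genes it raised 13 in Dux KO cells and 12 in WT cells, and of 14 genes of repair and metabolism, 7 and 7. Mdm2 (chr10:117688875-117710758) had 32.3 and 36 FPKM in the drug-treated Dux KO libraries and 4.88 and 4.59 FPKM in their controls, against 46.9 and 43.8 FPKM in the drug-treated WT libraries and 7.56 and 6.84 FPKM in their controls. Drug-treated and control libraries did not overlap in either genotype, and the responses were 2.82 in Dux KO cells and 2.64 in WT cells. Its interaction was 0.18 (SE 0.15, adjusted p = 0.47), and under TMM-type scaling, quantile normalization and the 4 count models the sign turned, to between -0.07 and -0.04. Cdkn1a, the cell-cycle inhibitor p21, had 24.6 and 23.7 FPKM in the drug-treated Dux KO libraries and 11.7 and 12.9 FPKM in their controls, against 20.8 and 19.3 FPKM in the drug-treated WT libraries and 8.3 and 8.14 FPKM in their controls. The responses were 0.97 in Dux KO cells and 1.28 in WT cells, and the interaction was -0.31 (adjusted p = 0.2). Trp53 itself had an interaction of -0.21 (adjusted p = 0.49). In edgeR without the copied column both passed, Cdkn1a at -0.43 (adjusted p = 0.0239) and Trp53 at -0.45 (adjusted p = 0.044), and in the 3 count fits with recovered reads neither did (adjusted p = 0.0722 to 0.183). These p-values do not show that the responses were alike.

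A minority of p53 targets had an interaction past the threshold. Of the arrest list 2 were higher (Mdm4 and Trp73) and 1 lower (Plk3), of the death list 2 were higher (Trp53i11 and Bbc3) and 1 lower (Tnfrsf23), and of the repair list 3 were higher (Ddb2, Gls2 and Polk) and 1 lower (Tigar). Their medians were 0.32, 0.43 and 0.65, against 0.24 over all genes, of which 7.82% were higher and 7.08% lower. Gls2, a mitochondrial glutaminase, had 3.46 and 3.53 FPKM in the drug-treated Dux KO libraries and 2.66 and 2.57 FPKM in their controls, against 1.62 and 1.37 FPKM in the drug-treated WT libraries and 2.92 and 3.02 FPKM in their controls. Only the drug-treated WT pair was below 2 FPKM, and the interaction was 1.35 (SE 0.16, limma adjusted p = 0.0045), which held without each library in turn. Bbc3, which encodes the BH3 protein PUMA, had 6.08 and 6.34 FPKM in the drug-treated Dux KO libraries and 1.86 and 2.49 FPKM in their controls, against 3.24 and 3.1 FPKM in the drug-treated WT libraries and 3.11 and 2.69 FPKM in their controls. It was highest in drug-treated Dux KO libraries and hardly apart between the WT pairs. The interaction was 1.36 (SE 0.22, limma adjusted p = 0.015). Trp53i11, a p53-inducible gene, responded by 2.23 in Dux KO cells and 0.90 in WT cells, an interaction of 1.32 (adjusted p = 0.012). Tigar, a fructose bisphosphatase, had 2.4 and 2.5 FPKM with drug and 2.59 and 3.48 FPKM without it in Dux KO cells, against 6.8 and 7.12 FPKM with drug and 3.47 and 3.22 FPKM without it in WT cells, an interaction of -1.32 (adjusted p = 0.015). Drug-treated WT cells alone were high. Mdm4 (1.28, adjusted p = 0.029), Trp73 (0.98, adjusted p = 0.023), Polk (0.89, adjusted p = 0.015), Plk3 (-1.39, adjusted p = 0.023) and Tnfrsf23 (-0.97, adjusted p = 0.024) also passed. All of these but Gls2 missed the threshold in refits without 1 library, at adjusted p = 0.0518 to 0.178. For Mdm4, Trp73, Polk, Tnfrsf23, Tigar and Ddb2 it was any 1 of the 4 WT or 2 treated Dux KO libraries, for Plk3 any of these but Dux KO doxorubicin 1 and for Bbc3 any but WT control b. For Trp53i11 it was WT control a, WT doxorubicin b or Dux KO doxorubicin 1. On counts with recovered reads Tnfrsf23 missed the threshold in edgeR (adjusted p = 0.0816) and DESeq2 (0.116). Ddb2 missed it there too (0.14 and 0.172).

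Many naive pluripotency genes fell with drug, and for some the drug response was less negative in Dux KO cells. Of 24 naive pluripotency genes, drug lowered 11 in Dux KO cells and 18 in WT cells (background 10.2% and 24.9%), with median responses of -0.80 and -1.45. The interaction was higher for 8 (Prdm14, Klf4, Nanog, Fgf4, Tdgf1, Socs3, Esrrb and Tcl1) and lower for 1 (background 7.82% and 7.08%), with a median of 0.73. Tdgf1, the Nodal co-receptor Cripto, had 41 and 26.2 FPKM in the drug-treated Dux KO libraries and 84.2 and 102 FPKM in their controls, against 2.59 and 1.89 FPKM in the drug-treated WT libraries and 56.6 and 68.5 FPKM in their controls. The drug-treated WT libraries were far below every other library, and the interaction was 3.26 (SE 0.38, limma adjusted p = 0.0047). Its processed pseudogene Tdgf1-ps1 had 519 and 323 FPKM with drug and 1061 and 1223 FPKM without it in Dux KO cells, against 30.9 and 21.9 FPKM with drug and 602 and 747 FPKM without it in WT cells, an interaction of 3.21 (adjusted p = 0.007). Sequence shared with other genes (50.9% of its 50-base words) leaves the source of these reads uncertain. Fgf4, a growth factor of the inner cell mass, had 5.8 and 4.58 FPKM with drug and 11.7 and 9.91 FPKM without it in Dux KO cells, against 1.1 and 0.815 FPKM with drug and 9.39 and 9.04 FPKM without it in WT cells, an interaction of 2.11 (adjusted p = 0.006). Nanog and Esrrb, transcription factors of the naive state, had interactions of 1.49 (adjusted p = 0.027) and 1.41 (adjusted p = 0.039). Nanog had 56.4 and 63.5 FPKM with drug and 128 and 155 FPKM without it in Dux KO cells, against 33.6 and 23.1 FPKM with drug and 189.8 and 179.7 FPKM without it in WT cells. Fbxo15 went the other way at -1.04 (adjusted p = 0.017). On counts with recovered reads Socs3 missed the threshold in edgeR (adjusted p = 0.0763) and DESeq2 (0.0647).

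Among 15 core pluripotency genes, 4 were higher (Mybl2, Sox2, Utf1 and Pou5f1) and 2 lower (Zfp296 and Dppa2), beside 7.82% and 7.08% over all genes. Their median of 0.23 was near that of all genes. Sox2 (chr3:34650405-34652461) had 155 and 143 FPKM in the drug-treated Dux KO libraries and 163 and 144 FPKM in their controls, against 41.8 and 35.4 FPKM in the drug-treated WT libraries and 179 and 157 FPKM in their controls. The drug-treated WT pair was below 50 FPKM and the other 6 libraries, the treated Dux KO pair among them, were above 100 FPKM. Its interaction was 2.08 (SE 0.21, limma adjusted p = 0.0024), with a mean of 149 ± 8.7 FPKM with drug and 153 ± 13.3 FPKM without it in Dux KO cells, against 38.6 ± 4.58 FPKM with drug and 168 ± 15.5 FPKM without it in WT cells (SD, n = 2 each). It held in every alternative run. Sox2 overlaps 1 other annotated gene. Pou5f1, which encodes OCT4, had 84.4 and 71.5 FPKM in the drug-treated Dux KO libraries and 167 and 216 FPKM in their controls, against 35.4 and 30.9 FPKM in the drug-treated WT libraries and 194 and 197 FPKM in their controls. It was lower with drug in both genotypes, with responses of -1.29 in Dux KO cells and -2.56 in WT cells and an interaction of 1.27 (adjusted p = 0.024). Utf1 had 1.05 (limma adjusted p = 0.017) and missed the threshold in edgeR with recovered reads (adjusted p = 0.0555). Foxd3 was the only 1 of 12 primed pluripotency genes that passed, at 1.84 (adjusted p = 0.019). Fgf4, Tdgf1 and Tdgf1-ps1 missed the threshold without WT doxorubicin b (adjusted p = 0.0504 to 0.0637). Esrrb, Pou5f1, Fbxo15 and Socs3 missed it without any 1 of the 4 WT or 2 treated Dux KO libraries, and Utf1 and Foxd3 without any of these but WT control b. Nanog missed it without any of these but WT doxorubicin a, and without Dux KO control 1. The adjusted p-values there were 0.0503 to 0.156. Under TMM-type scaling 6 naive genes were higher, and without WT doxorubicin b, 1 was.

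A group on the lower side outside the 2-cell genes was the replication-dependent histone genes. Their mRNAs normally lack poly(A) tails, so a poly(A)-selected library sees the tailed fraction. Of 21 tested, 9 were lower and 0 higher (background 7.08% and 7.82%), with a median interaction of -2.28. Drug lowered 11 and raised 0 in Dux KO cells, against 2 lowered and 7 raised in WT cells. Hist1h4i (chr13:22040636-22041362), an H4 gene, had 1.22 and 0.864 FPKM in the drug-treated Dux KO libraries and 1.9 and 3.32 FPKM in their controls, against 15.2 and 15.3 FPKM in the drug-treated WT libraries and 1.98 and 1.97 FPKM in their controls. Only the treated WT libraries were above 4 FPKM, and the treated Dux KO pair was the lowest. The interaction was -4.10 (SE 0.39, limma adjusted p = 0.0021). Hist1h2bg, an H2B gene, had 0.685 and 0.678 FPKM in the drug-treated Dux KO libraries and 3.39 and 2.43 FPKM in their controls, against 2.87 and 3.8 FPKM in the drug-treated WT libraries and 1.61 and 1.59 FPKM in their controls. Treated Dux KO libraries were lowest and overlapped no other group. The interaction was -2.93 (SE 0.28, limma adjusted p = 0.0021), with responses of -1.93 in Dux KO cells and 1.00 in WT cells. Hist1h4d had an interaction of -3.58 (adjusted p = 0.0041) and Hist1h3a of -2.28 (adjusted p = 0.018). The first 3 held in every alternative run. Hist1h3a, with 4 to 28 reads per library, missed the threshold in edgeR and DESeq2 on counts. It also missed it without any 1 of the 4 WT libraries or Dux KO doxorubicin 1. Without 1 library 3 to 6 of the 21 were lower, with 3 without WT doxorubicin b, and edgeR with recovered reads called 8.

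**Figure D3:**
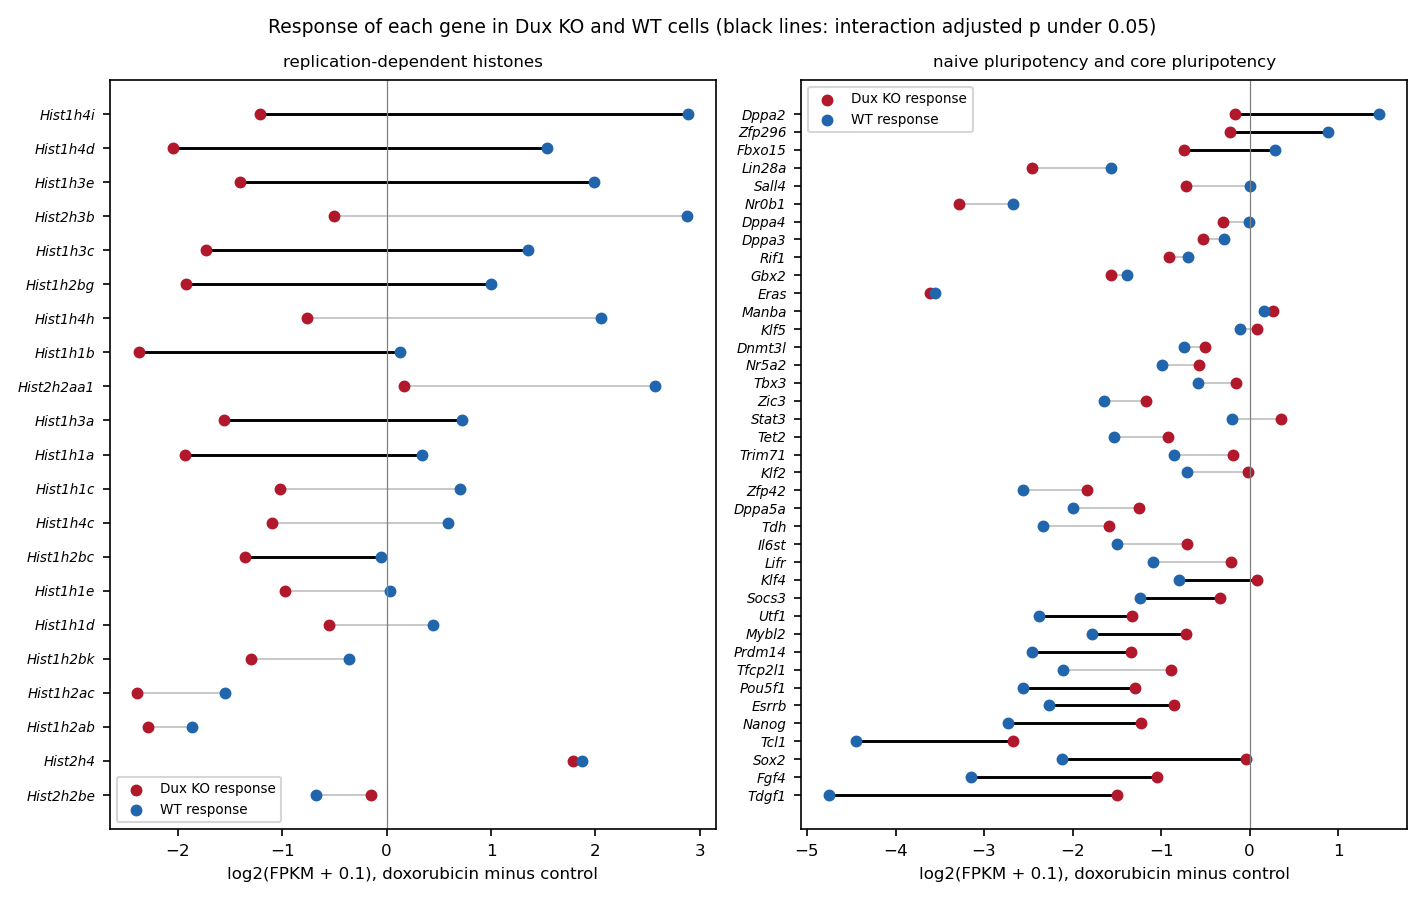
Drug response (log2 difference of FPKM + 0.1, doxorubicin minus control) of 21 histone genes and of naive and core pluripotency genes, with 1 dot for Dux KO and 1 for WT cells per gene and a black line where the interaction passed. Most histone responses are lower in Dux KO than in WT cells, while most pluripotency genes are below 0 in both genotypes and further below in WT cells.

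Most Wnt pathway genes tested rose with drug in both genotypes, with a marked difference at Dkk1. Of 11 tested, drug raised 9 in Dux KO cells and 9 in WT cells (background 23.3% and 26.9%). The interaction was lower for 3 and higher for 0 (background 7.08% and 7.82%). Dkk1 (chr19:30545863-30549665), a secreted Wnt inhibitor, had 0.234 and 0.408 FPKM in the drug-treated Dux KO libraries and 0.06 and 0.083 FPKM in their controls, against 9.97 and 10.3 FPKM in the drug-treated WT libraries and 0.042 and 0.04 FPKM in their controls. It was near 10 FPKM in treated WT libraries and below 0.5 FPKM in the others. Its interaction was -4.92 (SE 0.30, limma adjusted p = 0.00033), held in every alternative run. Axin2, a feedback inhibitor of the pathway, had 0.383 and 0.352 FPKM with drug and 0.565 and 0.227 FPKM without it in Dux KO cells, against 1.69 and 2.02 FPKM with drug and 0.249 and 0.191 FPKM without it in WT cells, an interaction of -2.61 (adjusted p = 0.022). Sp5, a target of the pathway, had 1.95 and 0.985 FPKM with drug and 2.67 and 1.21 FPKM without it in Dux KO cells, against 3.59 and 5.17 FPKM with drug and 0.796 and 0.806 FPKM without it in WT cells, an interaction of -2.65 (adjusted p = 0.047). The Wnt3 ligand had 0.774 and 0.985 FPKM in the drug-treated Dux KO libraries and 0.004 and 0.009 FPKM in their controls, against 1.22 and 0.975 FPKM in the drug-treated WT libraries and 0.016 and 0.007 FPKM in their controls. Treated and control libraries were apart in both genotypes, with responses of 3.19 in Dux KO cells and 3.42 in WT cells. Its interaction was -0.23 (SE 0.25, adjusted p = 0.58), and count models and a pseudocount of 0.01 gave it the opposite sign. Axin2 missed the threshold without any 1 of the 4 WT or 2 treated Dux KO libraries (adjusted p = 0.0643 to 0.12), and Sp5 also without Dux KO control 1 (0.064 to 0.182).

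Among lineage genes the interaction passed for single members of several lists, beside 7.82% higher and 7.08% lower over all genes. Neurod1, a neurogenic transcription factor, had 10.5 and 8.59 FPKM in the drug-treated Dux KO libraries and 0.517 and 0.542 FPKM in their controls, against 6.18 and 5.39 FPKM in the drug-treated WT libraries and 1.75 and 1.41 FPKM in their controls. It was higher with drug in both genotypes, by 3.93 in Dux KO cells and 1.81 in WT cells, and the interaction was 2.12 (SE 0.23, limma adjusted p = 0.0033). Neurog2 also passed, and of 7 neuroectoderm genes 1 was higher and 2 lower. Hnf4a, a transcription factor of endoderm, had 0.095 and 0.091 FPKM with drug and 0.014 and 0.007 FPKM without it in Dux KO cells, against 0.744 and 0.924 FPKM with drug and 0.027 and 0.032 FPKM without it in WT cells, an interaction of -2.04 (adjusted p = 0.0025). Sox17 was at -1.53 (adjusted p = 0.029). Of 11 primitive endoderm genes 1 was higher and 2 lower, and all levels named were below 1 FPKM. Mesp2, of mesoderm segmentation, had 5.12 and 5.17 FPKM with drug and 0.083 and 0.16 FPKM without it in Dux KO cells, against 1.42 and 1.2 FPKM with drug and 0.323 and 0.167 FPKM without it in WT cells, an interaction of 2.52 (adjusted p = 0.012). Treated Dux KO libraries were highest for Mesp2. Tbx6, another mesoderm factor, had 1.02 and 1.15 FPKM with drug and 0.213 and 0.194 FPKM without it in Dux KO cells, against 0.179 and 0.148 FPKM with drug and 0.117 and 0.139 FPKM without it in WT cells, an interaction of 1.76 (adjusted p = 0.0038). These were the 2 of 9 primitive streak genes that passed, both higher. On counts with recovered reads Tbx6 missed the threshold in DESeq2 (adjusted p = 0.0721) and in edgeR with RLE scaling. It passed in edgeR with TMM scaling (adjusted p = 0.0475).

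Trophectoderm, germline and fibroblast genes gave a few calls each. Tfap2c had 8.04 and 9.13 FPKM with drug and 4.53 and 4.42 FPKM without it in Dux KO cells, against 3.83 and 3.38 FPKM with drug and 5.12 and 4.56 FPKM without it in WT cells, an interaction of 1.34 (adjusted p = 0.0064). With Ascl2 it made 2 of 17 trophectoderm genes higher and 0 lower, a share of higher genes near that over all genes (7.82%). The list's median interaction was -0.71, below the 0.24 over all genes. Ascl2 missed the threshold under TMM-type scaling (limma adjusted p = 0.08), and with recovered reads in edgeR (adjusted p = 0.152) and DESeq2 (0.154). It also missed it without any 1 of the 4 WT or 2 treated Dux KO libraries. Smc1b, a meiotic cohesin subunit, had 0.317 and 0.405 FPKM with drug and 0.196 and 0.224 FPKM without it in Dux KO cells, against 0.253 and 0.222 FPKM with drug and 0.667 and 0.787 FPKM without it in WT cells, an interaction of 1.86 (adjusted p = 0.0053). It was 1 of 4 higher and 0 lower among 16 germline genes. Of 6 fibroblast genes Pdgfrb was higher at 1.33 (adjusted p = 0.025) and Vim lower at -1.20 (adjusted p = 0.019). Vim had 19.2 and 18.9 FPKM with drug and 25.7 and 20.4 FPKM without it in Dux KO cells, against 36.1 and 41.2 FPKM with drug and 21.4 and 18.8 FPKM without it in WT cells. Of the lineage genes named here, Neurod1 held without each library in turn. Hnf4a held in the 6 refits that gave it a value, and without either treated WT library it fell below the filter and could not be fitted. Tbx6, Tfap2c and Smc1b missed the threshold without WT doxorubicin b (adjusted p = 0.0546 to 0.0641). Mesp2 missed it without any treated library (0.0519 to 0.0887), Vim without any 1 of the 4 WT or 2 treated Dux KO libraries (0.058 to 0.111), Pdgfrb without those but WT control a (0.0785 to 0.138), and Sox17 without either WT control, either treated Dux KO library or Dux KO control 1 (0.0515 to 0.0998). Neurog2 missed it without any of the 8 (0.0593 to 0.106) and with the line as a block (0.051).

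Many genes of DNA replication fell with drug, and few had an interaction past the threshold. Of 25 genes of G1/S and replication, drug lowered 13 and raised 1 in Dux KO cells, against 21 lowered and 0 raised in WT cells. The interaction was higher for 4 (Ccnd1, Gins2, Cdc25a and Ccnd3) and lower for 0 (background 7.82% and 7.08%), with a median of 0.58. Without 1 library 0 to 7 were higher, with 0 without WT doxorubicin b, and edgeR with recovered reads called 1. Gins2, a subunit of the replicative helicase complex, had 8.13 and 8.27 FPKM in the drug-treated Dux KO libraries and 8.31 and 9.63 FPKM in their controls, against 4.22 and 3.2 FPKM in the drug-treated WT libraries and 9.04 and 9.71 FPKM in their controls. Treated WT libraries alone were below 5 FPKM, and the interaction was 1.20 (SE 0.22, limma adjusted p = 0.022). Cdc25a, a phosphatase that activates cyclin-dependent kinases, was at 0.84 (adjusted p = 0.017). Of 25 G2/M genes, 3 were higher and 0 lower, among them Top2a, the main type II topoisomerase of dividing cells and a target of doxorubicin. Top2a had 26.7 and 24.7 FPKM with drug and 33.6 and 28.5 FPKM without it in Dux KO cells, against 15.8 and 15.1 FPKM with drug and 33.6 and 38.5 FPKM without it in WT cells, an interaction of 0.95 (adjusted p = 0.025). Of 24 DNA repair genes 3 were higher and 0 lower, among them Xrcc6 (0.89, adjusted p = 0.02) and Xrcc5, which act in end joining. Cdc25a, Ccnd1, Top2a, Xrcc5 and Xrcc6 missed the threshold without any 1 of the 4 WT or 2 treated Dux KO libraries, and Gins2 without any but WT doxorubicin a (adjusted p = 0.0553 to 0.144). Under TMM-type scaling 2 of the G1/S genes, 0 of the G2/M genes and 2 of the repair genes were higher. In edgeR with recovered reads Cdc25a, Ccnd1, Top2a, Xrcc5 and Xrcc6 missed the threshold, and Ccnd1 and Xrcc5 did so in DESeq2 too. The count of higher repair genes was 0 to 11 without 1 library, with 0 without WT doxorubicin b.

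Of the death genes outside the p53 lists, Bak1 differed most clearly. Bak1 (chr17:27019810-27029009), a pore-forming BCL2 protein of mitochondria, had 4.32 and 4.25 FPKM in the drug-treated Dux KO libraries and 7.55 and 7.37 FPKM in their controls, against 1.29 and 1.29 FPKM in the drug-treated WT libraries and 6.95 and 6.82 FPKM in their controls. The levels fell to under 1.3 FPKM in treated WT libraries, and the responses were -0.79 in Dux KO cells and -2.33 in WT cells. The interaction was 1.54 (SE 0.12, limma adjusted p = 0.00076), held in every alternative run. Bak1 overlaps 2 other annotated genes. Of 20 genes of the BCL2 family and caspases 2 were higher, Bak1 among them, and 0 lower, near the share of higher genes overall (7.82%). The count of higher genes was 1 to 5 without 1 library (1 without WT doxorubicin b) and 1 with the line as a block.

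Most stress genes rose with drug in both genotypes. Of 20 stress and immediate early genes, drug raised 14 in Dux KO cells and 16 in WT cells (background 23.3% and 26.9%), and 2 were lower and 0 higher in the interaction. Over all genes 7.08% were lower and 7.82% higher, and the counts of lower genes in the stress, chromatin and interferon lists are near that share. Klf6, a zinc finger transcription factor, had 6.57 and 7.07 FPKM in the drug-treated Dux KO libraries and 3.15 and 2.35 FPKM in their controls, against 17.3 and 18.8 FPKM in the drug-treated WT libraries and 2.8 and 2.41 FPKM in their controls. It was higher with drug in both genotypes and highest in treated WT libraries, an interaction of -1.45 (SE 0.23, limma adjusted p = 0.014). Fosl1, an AP-1 subunit, was at -0.98 (adjusted p = 0.029). Of 19 ATF4 genes 4 were higher (Chac1, Trib3, Shmt2 and Psat1) and 1 lower. On counts with recovered reads edgeR called 0 of them higher, and Trib3 and Psat1 missed the threshold in DESeq2 too. Phgdh, the first enzyme of serine synthesis, had 0.182 and 0.326 FPKM with drug and 1.56 and 1.54 FPKM without it in Dux KO cells, against 0.865 and 0.794 FPKM with drug and 1.43 and 1.41 FPKM without it in WT cells, an interaction of -1.54 (adjusted p = 0.023). Trib3, a pseudokinase, was at 0.88 (adjusted p = 0.024). Hdac1, a histone deacetylase, was the 1 lower gene of 17 for chromatin, at -1.04 (adjusted p = 0.019). Of 16 interferon and RNA-sensing genes Ddx58 was lower, though not with the line as a block (adjusted p = 0.052) or without any 1 of the 8 libraries (0.0545 to 0.149). Of 22 ribosome biogenesis genes, 0 passed in limma, with 0 at an unadjusted p under 0.05, and 0 in edgeR with recovered reads. DESeq2 called 1 lower, edgeR without the copied column 2 higher and 7 lower, and limma without Dux KO control 2, 2 higher and 2 lower. Fosl1, Trib3 and Psat1 missed the threshold without any 1 of the 4 WT or 2 treated Dux KO libraries, Klf6 and Hdac1 without any of these but WT control a (adjusted p = 0.0506 to 0.137), and Phgdh without any 1 of the 4 WT libraries (0.0822 to 0.11).

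Mir210, Slc16a3, Neil2 and Aire had some of the largest positive interactions, and each was low in treated WT cells and not in treated Dux KO cells. The Mir210 locus, host of the miRNA printed above, had 3.85 and 4.76 FPKM in the drug-treated Dux KO libraries and 2.57 and 5.93 FPKM in their controls, against 0 FPKM in both drug-treated WT libraries and 3.26 and 5.14 FPKM in their controls. These rest on few reads, 20 and 25 reads in the drug-treated Dux KO libraries and 15 and 33 in their controls, against 0 and 0 in the drug-treated WT libraries and 9 and 15 in their controls. No read was counted on it in treated WT libraries, and all other libraries had reads. The interaction was 5.52 (SE 0.59, limma adjusted p = 0.0032), held in every alternative run where it could be fitted. With each library set to at least 3 reads, it was 2.12, so its size rests on the pseudocount. Reads of a poly(A)-selected library over the locus do not measure the mature miRNA. Slc16a3, a lactate transporter, had 18.2 and 19.4 FPKM in the drug-treated Dux KO libraries and 14.8 and 16.2 FPKM in their controls, against 2.29 and 1.23 FPKM in the drug-treated WT libraries and 12.5 and 15.7 FPKM in their controls. Treated WT libraries were the lowest and the other 6 lay together. Its interaction was 3.26 (SE 0.40, limma adjusted p = 0.0055). Neil2, a DNA glycosylase of base excision repair, had 2.55 and 2.32 FPKM in the drug-treated Dux KO libraries and 0.929 and 1.09 FPKM in their controls, against 0.384 and 0.224 FPKM in the drug-treated WT libraries and 1.25 and 1.48 FPKM in their controls. Treated WT libraries were lowest and treated Dux KO libraries highest, and the interaction was 3.08 (SE 0.31, limma adjusted p = 0.0025). Aire, the autoimmune regulator, had 10 and 11.6 FPKM with drug and 6.44 and 7.48 FPKM without it in Dux KO cells, against 1.71 and 0.895 FPKM with drug and 6.95 and 7.02 FPKM without it in WT cells, an interaction of 3.02 (adjusted p = 0.0073). It overlaps 1 other annotated gene.

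Other large positive values came from loci with very few reads. Mir7037 had 4 and 8 reads in the drug-treated Dux KO libraries and 2 and 1 in their controls, against 0 and 0 in the drug-treated WT libraries and 1 and 1 in their controls, with an interaction of 4.69 (adjusted p = 0.0039). Mir7665 had 3 and 4 reads in the drug-treated Dux KO libraries and 0 reads in the other 6, with an interaction of 3.65 (adjusted p = 0.00031). Mir5100 (2.92) and Mir874 (3.41) likewise had 2 to 4 reads in treated Dux KO libraries and none elsewhere, and Mir194-1 (2.76) had 1 read in each WT control alone. Each overlaps at least 1 other gene. Groups with 0 reads in both libraries add no spread to the fit, so these adjusted p-values are no measure of spread there. Mir1901 (3.30, adjusted p = 0.0071), Mir6939 (3.94, adjusted p = 0.043), Rpl36-ps8 (3.58, adjusted p = 0.021), Mdk-ps1 (3.07, adjusted p = 0.028) and AC126937.3 (2.80, adjusted p = 0.00029) completed the genes chosen by size or by p. Mir1901 had 5 and 7 reads with drug and 15 and 15 without it in Dux KO cells, against 0 and 0, and 3 and 6, in WT cells. With each library set to at least 3 reads, its interaction turned to -0.52. At that floor Mir7665 and Mir874 were at 0.45, Mir5100 and Mir194-1 at 0.23, Mir6939 at 1.01, Mir7037 at 1.23, Mdk-ps1 at 1.79, Rpl36-ps8 at 2.44 and AC126937.3 at 2.62. Mir7037 and Mir1901 missed the threshold without WT doxorubicin b (adjusted p = 0.0518 and 0.0674). Mir6939 did so without any 1 WT library, Dux KO control 2 or Dux KO doxorubicin 2 (0.0565 to 0.161), Rpl36-ps8 without WT control b, WT doxorubicin b or either treated Dux KO library (0.063 to 0.0799) and Mdk-ps1 without any library but WT control b (0.0501 to 0.0983). Mir6939 also missed it with the line as a block (adjusted p = 0.068).

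**Figure D4:**
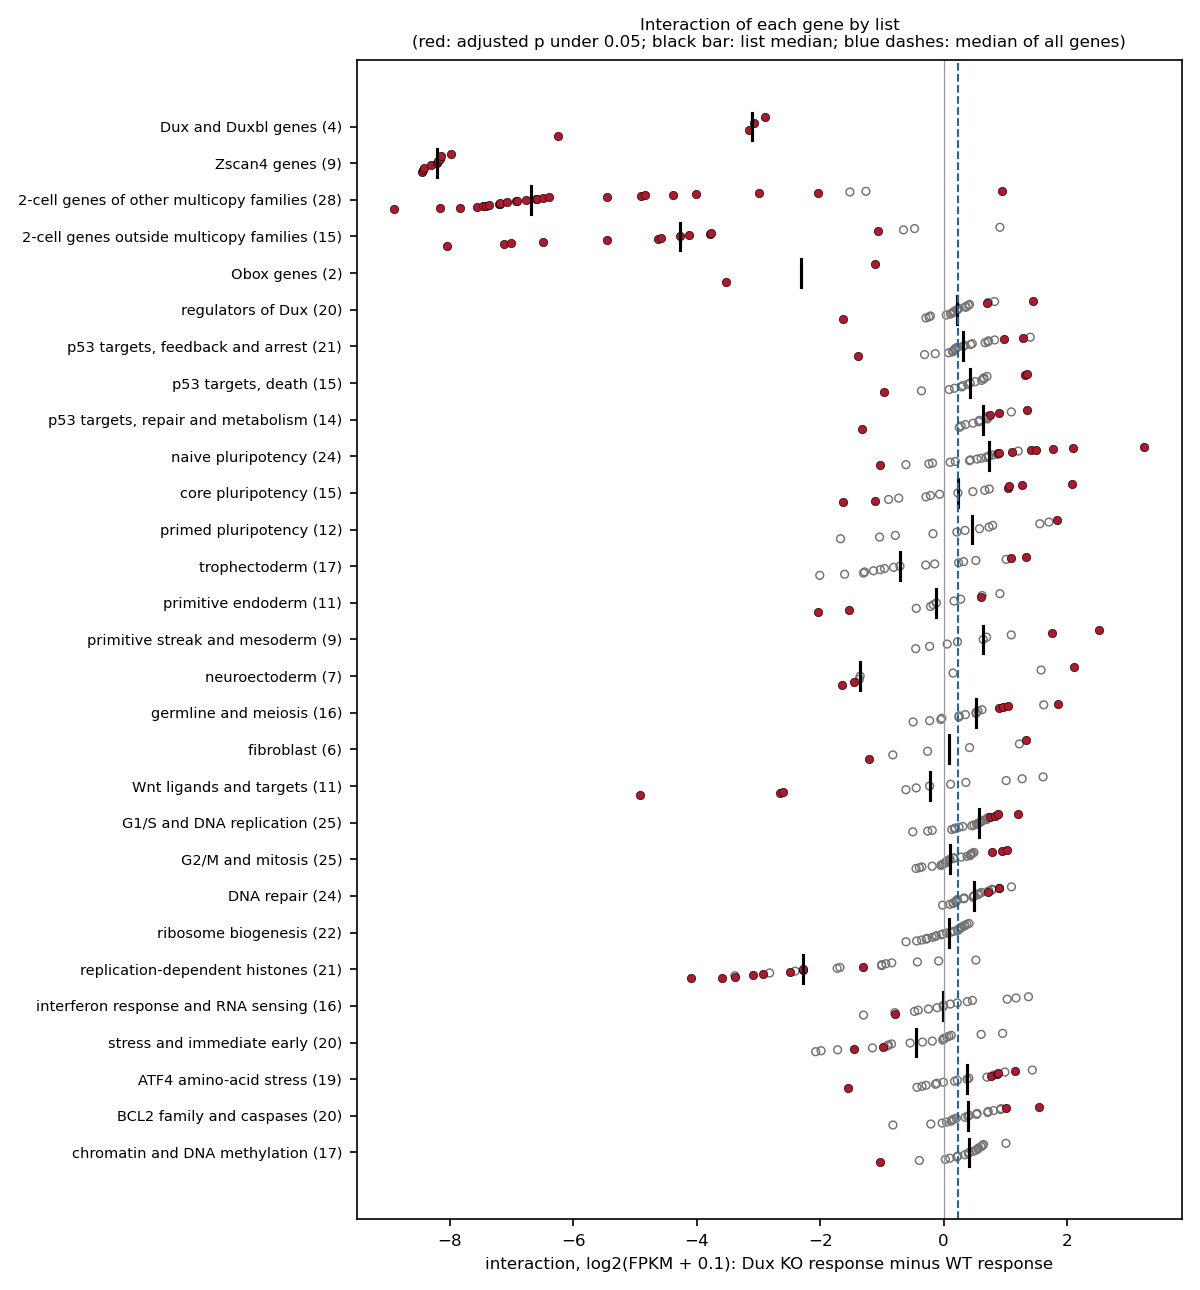
Interaction of every tested gene in 29 lists, in log2 units, with red points for genes past the threshold, a black bar for each list's median and a blue dashed line at the median of all genes (0.24). The Zscan4 and other 2-cell lists lie far below the line at medians of -8.22, -6.68 and -4.28, histones at -2.28, and the naive pluripotency list above it at 0.73.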

How the data were processed

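RNA was sequenced from poly(A)-selected libraries, and the authors deposited 1 table of counts and 1 of FPKM per gene for 54532 genes on mm10. TopHat2, DESeq and DESeq2 are named without versions in the submitters' processing notes. The deposited FPKM imply lengths within 1% of the whole gene span for 98.4% of 12408 genes checked, and 54409 IDs matched GENCODE release M21 (GRCm38). In the deposited counts the column of Dux KO control 2 equals that of Dux KO doxorubicin 1 at 54532 genes. Its reads were recovered from its FPKM (55620188 reads, 100% of 2261 low values within 0.15 of a whole number), and 6 group-average columns were left out.

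The main fit was limma 3.58.1 in R 4.3.3 with eBayes and a mean trend on log2(FPKM + 0.1), over the 8 libraries with 4 residual degrees of freedom. It kept genes with at least 0.1 FPKM in 2 libraries (25373), with Benjamini-Hochberg adjustment over all of them and a threshold of 0.05. Alternatives were other pseudocounts, filters and scalings, all 12 libraries, a block for the Dux KO line, each library left out, and edgeR 4.0.16 and DESeq2 1.42.0 on counts. The fit was tested on simulated data with known interactions and recovered only a part of them, so a gene that missed the threshold is not shown to be unchanged. The line number pairs Dux KO libraries, since each line gave 1 treated and 1 control library, and over 25373 genes their deviations had an r of 0.04. WT columns carry no number. Reads of overlapping genes cannot be told apart, and the treatment of multiply mapped reads is not given in the sources used here.

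The genes, lists and tests were chosen with earlier results of these data known. Named genes were the 12 largest interactions in each direction with both Dux KO line differences on the same side of all WT differences, a group mean of at least 1 FPKM and a gene symbol not starting with Gm or ending in Rik, up to 4 genes per list by p, the 5 with the smallest adjusted p in each direction, and a few anchors such as Duxf3, Mdm2, Pou5f1 and Nanog. Other genes named were list members past the threshold. Some list members are counted but not reported here by name.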

Additional observations from a re-analysis of the deposited data

Results flagged for a closer look

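Each result here was picked out because the drug effect in Dux KO cells and in WT cells differed by the test of the difference itself, the interaction of the limma fit at an adjusted p under 0.05. Values in brackets are log2 interactions, Dux KO response minus WT response. The groups hold 2 libraries each. The interaction was lower for 1797 genes and higher for 1985.

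Lower were the Dux, Zscan4 and 2-cell genes Zscan4-ps3 (-8.46), Zscan4-ps2 (-8.43), Zscan4a (-8.42), Zscan4e (-8.31), Zscan4f (-8.22), Zscan4b (-8.19), Zscan4-ps1 (-8.16), Tcstv3 (-8.15), Zscan4c (-8.14), Kdm4dl (-8.05), Zscan4d (-7.98), AF067061 (-7.84), Gm4340 (-7.46), Usp17le (-7.42), Tmem92 (-7.02), Gm20767 (-6.77), Zfp352 (-6.50), Duxf3 (-6.25), Ubtfl1 (-5.45), Rfpl4b (-4.63), Obox1 (-3.53), Duxbl1 (-3.15), Duxbl3 (-3.07) and Duxbl2 (-2.89). With them stood the noncoding or pseudogene loci AU015228 (-7.93), Gm8723 (-7.59) and Gm8701 (-7.54). Lower Wnt genes were Dkk1 (-4.92), Sp5 (-2.65) and Axin2 (-2.61), and lower histone genes Hist1h4i (-4.10), Hist1h4d (-3.58), Hist1h2bg (-2.93) and Hist1h3a (-2.28). Lower p53 targets were Plk3 (-1.39), Tigar (-1.32) and Tnfrsf23 (-0.97). Among lineage and pluripotency genes Hnf4a (-2.04), Dppa2 (-1.64), Sox17 (-1.53), Vim (-1.20) and Fbxo15 (-1.04) were lower, and among stress, metabolic and chromatin genes Phgdh (-1.54), P4ha2 (-1.49), Klf6 (-1.45), Hdac1 (-1.04) and Fosl1 (-0.98).

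Higher pluripotency genes were Utf1 (1.05), Pou5f1 (1.27), Esrrb (1.41), Nanog (1.49), Foxd3 (1.84), Sox2 (2.08), Fgf4 (2.11) and Tdgf1 (3.26), with the pseudogene Tdgf1-ps1 (3.21). Higher p53 targets were Polk (0.89), Trp73 (0.98), Mdm4 (1.28), Trp53i11 (1.32), Gls2 (1.35) and Bbc3 (1.36), and higher genes of death, repair and the cell cycle Cdc25a (0.84), Xrcc6 (0.89), Top2a (0.95), Gins2 (1.20), Bak1 (1.54) and Neil2 (3.08). Higher lineage genes were Pdgfrb (1.33), Tfap2c (1.34), Tbx6 (1.76), Smc1b (1.86), Neurod1 (2.12) and Mesp2 (2.52). Higher genes of glycolysis and hypoxia were Egln1 (1.61), Pgk1 (1.86), Ldha (1.89), Tpi1 (2.14), Vegfa (2.28), Aldoc (2.33), Bnip3 (2.92) and Slc16a3 (3.26). Also higher were Trib3 (0.88), Ehmt2 (1.45) and Aire (3.02). Loci of few reads or of pseudogenes on the higher side were Mir194-1 (2.76), AC126937.3 (2.80), Mir5100 (2.92), Mdk-ps1 (3.07), Mir1901 (3.30), Mir874 (3.41), Rpl36-ps8 (3.58), Mir7665 (3.65), Mir6939 (3.94), Mir7037 (4.69) and Mir210 (5.52).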

How the results depend on the processing

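Of 109 named genes past the threshold, 0 reversed in any alternative, 25 kept their call in every alternative in which they could be fitted (18 of them in all 21) and 48 in every refit without 1 library in which they could be fitted. The floor of 3 reads was not among these alternatives, and under it the Mir1901 interaction turned to -0.52. The number of genes with a higher interaction (1985) was 1261 with all 12 libraries, 1133 under TMM-type scaling, 4261 in edgeR without the copied column, 1039 in edgeR with recovered reads and TMM, 977 with RLE, and 129 to 3002 without 1 library. The number with a lower one (1797) was 936 with a filter of 1 FPKM, 3300 in edgeR without the copied column and 237 to 1947 without 1 library. In WT cells, genes raised (6826) numbered 3573 with the 1 FPKM filter and 4131 to 7456 without 1 library, and genes lowered (6330) 3816 to 7509. In Dux KO cells, genes raised (5917) numbered 3372 with that filter and 3660 to 6436 without 1 library. Genes lowered there (2590) numbered 4502 with quantile normalization, 6421 in edgeR without the copied column, 5697 with recovered reads and TMM, 5336 with RLE, 5374 in DESeq2 and 1175 to 3327 without 1 library. The cause was not tested, except that a filter tests fewer genes and an omitted library leaves fewer samples. The Mdm2 interaction was -0.063 under quantile normalization, -0.047 under TMM-type scaling, -0.041 in edgeR without the copied column, -0.059 with recovered reads and TMM, -0.074 with RLE and -0.07 in DESeq2. That of Wnt3 was 0.049 at a pseudocount of 0.01, 0.894 in edgeR without the copied column, 0.217 with recovered reads and TMM, 0.201 with RLE and 0.211 in DESeq2. With the replicate block for the Dux KO line, 1991 genes were higher and 1775 lower. Neurog2, Kdm1a, Obox6, Mir6939, Ddx58 and Ccnd3 (limma adjusted p = 0.0551) were among the named genes that lost their call. A group left with 1 library was assumed to vary like the others. With 2 libraries a group and values of 0 set by the pseudocount, sizes of the largest interactions are not measured.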

Other observations

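Genes of glycolysis and the hypoxia response, a group described in no list above, held many higher interactions. The list of 37 genes was written after their values were seen, so it gets no test. All 37 were tested, with 22 higher and 1 lower in the interaction and a median of 1.10, against 7.82% and 7.08% called and a median of 0.24 over all genes. Drug raised 5 and lowered 5 in Dux KO cells (median response -0.12), against 3 raised and 28 lowered in WT cells (median -1.52). Bnip3, a mitophagy receptor induced by hypoxia, had 6.44 and 5.54 FPKM in the drug-treated Dux KO libraries and 8.27 and 8.32 FPKM in their controls, against 0.627 and 0.521 FPKM in the drug-treated WT libraries and 6.08 and 7.94 FPKM in their controls. Its interaction was 2.92 (SE 0.24, limma adjusted p = 0.00098). Vegfa, an angiogenic growth factor, had 15.9 and 14.3 FPKM in the drug-treated Dux KO libraries and 13.1 and 12.9 FPKM in their controls, against 2.01 and 1.6 FPKM in the drug-treated WT libraries and 7.3 and 8.51 FPKM in their controls. The interaction was 2.28 (SE 0.21, limma adjusted p = 0.0016). In both, the treated WT pair was below the other 6 libraries.

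Egln1, the oxygen-sensing prolyl hydroxylase, had an interaction of 1.61 (adjusted p = 0.0021), and with Bnip3, Vegfa and Slc16a3 it held in every alternative run. Among glycolytic enzymes, Tpi1 was at 2.14 (adjusted p = 0.0076), Aldoc at 2.33 (adjusted p = 0.0072), Ldha at 1.89 (adjusted p = 0.014) and Pgk1 at 1.86 (adjusted p = 0.03). Tpi1 had 166 and 152 FPKM in the drug-treated Dux KO libraries and 198 and 244 FPKM in their controls, against 32.1 and 24.1 FPKM in the drug-treated WT libraries and 153 and 189 FPKM in their controls. Adm, Car12, Gapdh, Hk2 and Ddit4 did not pass. P4ha2, a collagen prolyl hydroxylase, was the lower gene at -1.49 (adjusted p = 0.013), with 2.17 and 2.48 FPKM with drug and 0.608 and 0.781 FPKM without it in Dux KO cells, against 8.57 and 9.01 FPKM with drug and 0.831 and 1.04 FPKM without it in WT cells. Without WT doxorubicin b, 5 genes of the list were higher, and Tpi1 and Aldoc missed the threshold (adjusted p = 0.0611 and 0.0686). Pgk1 missed it without any 1 of the 4 WT or 2 treated Dux KO libraries, Ldha without any of these but WT doxorubicin a, and P4ha2 without WT control a, either treated WT library or Dux KO doxorubicin 1 (0.0509 to 0.137). Settings that kept all libraries gave 18 to 23 higher genes, and edgeR without the copied column gave 30.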
